A study of Homo sapiens with 16 samples.

Results

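The effect of glutamine withdrawal was set against PIK3CA genotype in DLD1, an established human colorectal carcinoma cell line, on 8 of the 16 arrays of the study. PIK3CA encodes a catalytic subunit of phosphoinositide 3-kinase. The arrays form 4 groups of 2, all named biological replicates by the labels: Mut without glutamine, Mut with glutamine, WT without glutamine and WT with glutamine. In Mut the wild-type PIK3CA allele had been knocked out, in WT the mutant allele, so both derivatives carry 1 knocked-out allele, and each genotype is 1 derivative of the line. The medium was DMEM supplemented with dialyzed fetal bovine serum (10%), and cells were kept with or without glutamine for 24 h. The remaining 8 arrays hold the same 4 groups of HCT116, a second colorectal carcinoma line, and serve here for the common estimate of spread and for the test of a difference between the lines. The labels do not say whether replicates came from separate cultures, so p-values measure only the spread between these samples, which may be technical, and anything else that differs between the derivatives cannot be told apart from the allele.

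The quantity studied is the interaction: the log2 change on withdrawal in Mut minus the log2 change on withdrawal in WT. A negative interaction means that the gene rose less, or fell more, in Mut than in WT. The same number is also the Mut minus WT difference without glutamine minus the Mut minus WT difference with glutamine, so an interaction can arise from derivatives that already stood apart in full medium, or from derivatives that came apart without glutamine. Members are all genes with a probe set of 1 gene symbol (the brightest per gene), and 15676 of 22395 genes were bright enough to be tested.

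Cells that run short of an amino acid sense uncharged tRNA through the kinase GCN2, which slows translation in general while the transcription factor ATF4 is made. ATF4 then turns on genes of amino acid synthesis, transport and tRNA charging, together with feedback inhibitors of the response. Glutamine also feeds nucleotide synthesis, and cells that stop cycling lower the E2F-driven genes of DNA replication and the genes of mitosis. Phosphoinositide 3-kinase signals through AKT to mTORC1, which senses amino acids as well.

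Values are the deposited linear intensities, with array medians from 3.57 to 3.70 over the series. The 2 replicates of each DLD1 group had a correlation of 0.991 to 0.992 (genes being no independent replicates) and differed by a median of 0.14 to 0.16 on the log2 scale. Epithelial markers were bright on all 8 DLD1 arrays (EPCAM 1978 to 2377, CDH1 1828 to 3085, KRT19 652 to 1001, CDH17 390 to 735), whereas VIL1 (3.13 to 9.29), CDX1 (4.16 to 7.47) and LGALS4 (6.42 to 12.3) were dim. The summed level of the 13 epithelial markers was 6915 to 7066 in Mut −Gln, 7250 to 7790 in Mut +Gln, 9005 to 9038 in WT −Gln and 8738 to 9526 in WT +Gln, lower in Mut. Leukocyte markers ranged from PTPRC (1.68 to 2.37) to CD68 (23.1 to 39.6), and CD8A lay between 5.33 and 18.4. The sum over 12 leukocyte markers was 61 to 68, 69 to 83, 87 to 92 and 60 to 64 in the same groups. For 10 fibroblast markers it was 33 to 34, 36 to 37, 36 to 38 and 34. For 8 endothelial markers, of which ESAM read 22.0 to 42.9, it was 55 to 61, 56 to 69, 49 to 50 and 43 to 47. Of the 30 leukocyte, fibroblast and endothelial markers with a probe set 11 were bright enough to be tested. No tested marker of any of these lists had a called interaction (0.823% of all genes did), which with so few tested does not set the markers apart. The 4 tested leukocyte markers had a median interaction of -0.69, and 2 were called lower in Mut without glutamine (5.91% of all genes). The part of these levels in the results was not tested. PIK3CA had no probe set named for it alone and was not analysed here, so the genotype labels were not checked on the targeted gene.

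Of the tested genes, 129 had a called interaction at an adjusted p under 0.05 (0.823% of 15676), 40 of them positive (0.255%) and 89 negative (0.568%). The test was limma's, adjusted by Benjamini-Hochberg over all tested genes, and 2338 genes had an unadjusted p under 0.05. Absolute interactions of the called genes ran from 0.57 to 3.10 with a median of 0.99 on the log2 scale. The Mut and WT changes did not overlap between arrays for any of the 129, as for 32.2% of all tested genes. With each array shifted to the same median, the split was 48 positive and 42 negative. The count rests on all arrays: with any 1 of the 8 DLD1 arrays left out, 15 to 36 genes were called, fewest without WT −Gln replicate 2, and 13 genes were called in all 8 such fits. DLD1 fitted without the HCT116 arrays called 3 genes, and 2349 had an unadjusted p under 0.05 there. The sign of every one of the 129 was kept in each fit in which it was tested. That was fixed in advance here: changes that do not overlap cannot reverse when an array is left out. Fitting DLD1 alone leaves the estimates themselves unchanged.

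The mean of the Mut minus WT differences in both media, which is estimated independently of the interaction, was used to tell which difference was the larger; it was called for 13.5% of all tested genes (6.18% higher in Mut, 7.28% lower). For 31 genes the difference was larger with glutamine, for 49 it was larger without, and for 49 this was not decided. Genes called between Mut and WT in full medium and not without glutamine numbered 36, and those called without glutamine and not in full medium 66. A further 20 were called in both media with the same sign and 7 with opposite signs. Since a difference that is not called need not be absent, its 95% interval was read as well. For 52 genes, 12 positive and 40 negative, Mut and WT lay within 1.5-fold of each other with glutamine and were called apart without it. For 23 genes, 7 positive and 16 negative, they lay within 1.5-fold without glutamine and were called apart with it. These are counts without a test, because the interaction is made of the same differences. Over all tested genes Mut and WT were called apart for 910 genes with glutamine (5.81%) and for 1610 without it (10.3%).

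**Figure D1:**
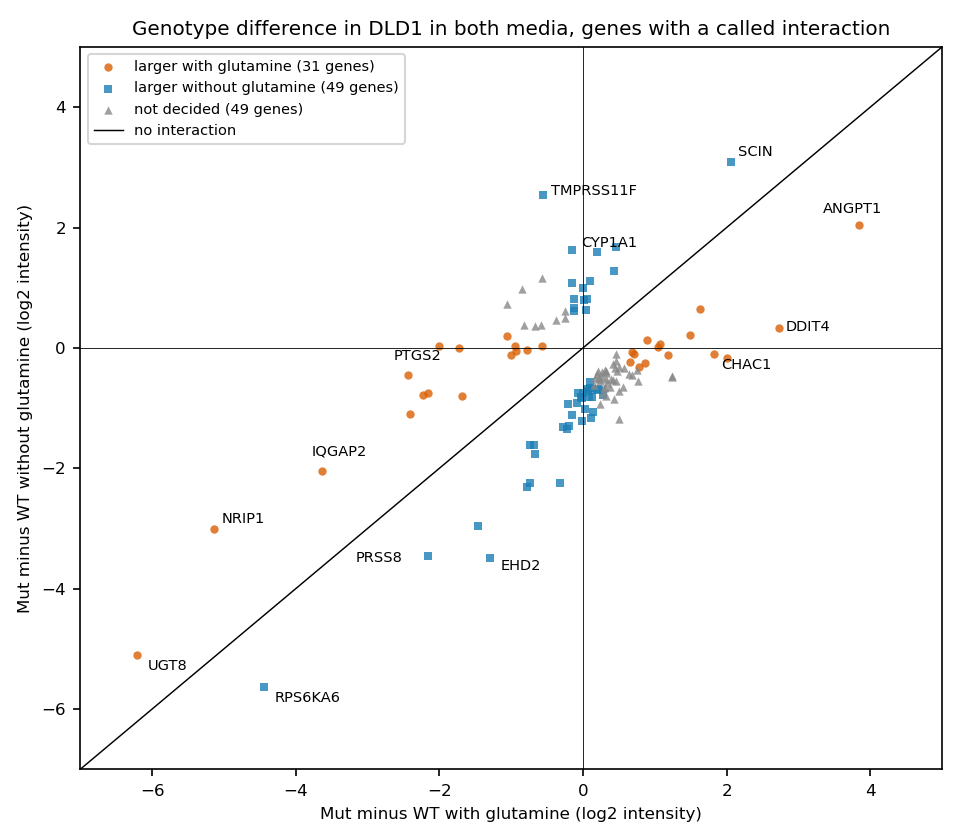
Mut minus WT difference in log2 intensity with glutamine (horizontal axis) and without glutamine (vertical axis) for the 129 genes with a called interaction, 1 point per gene, coloured by whether the difference was larger with glutamine (31 genes), larger without (49) or not decided (49). Points on the diagonal line would have no interaction. DDIT4 and CHAC1 sit far to the right and near the horizontal zero line, and TMPRSS11F and CYP1A1 sit high and near the vertical one.

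The clearest group among the baseline differences was the amino acid response. Of its 48 listed genes 44 were tested. Of these, 14 had a called negative interaction (0.568% of all genes) and 0 a positive one (0.255%). Of the 44 estimates 36 lay below 0, against 8185 of 15676 over all tested genes. The median interaction of the list was -0.62, against -0.02 over all tested genes, and -0.40 with a pseudocount of 16 added before the log2. In WT all 14 called members rose on withdrawal (27% of all genes changed, 14% upwards). In Mut 8 of the 14 rose (33.6% of all genes changed, 16.8% upwards), 5 were not called and 1, EIF4EBP1, fell. Between the derivatives 18 of the 44 list members were called higher in Mut with glutamine, against 2.6% of all genes, and 0 lower (3.2%). Without glutamine 4 were called higher in Mut (4.36% of all genes) and 6 lower (5.91%). The median Mut minus WT difference of the list was 0.40 with glutamine and -0.09 without it. By class, 9 of the 14 had their larger difference with glutamine, 0 without, and 5 were not decided.

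DDIT4, whose product restrains mTORC1, had intensities of 641.2 and 673.8 in Mut −Gln, 179.7 and 246.7 in Mut +Gln, 536 and 514.8 in WT −Gln, and 31.15 and 32.43 in WT +Gln. The WT arrays with glutamine stood far below the other 6, and the groups did not overlap. In full medium Mut exceeded WT 6.62-fold (log2 difference 2.73 ± 0.13 SE, adjusted p = 1.09e-06). Without glutamine the difference was 0.32 (95% interval 0.03 to 0.62), not called at an adjusted p of 0.164. Withdrawal raised DDIT4 3.12-fold in Mut and 16.5-fold in WT, and the interaction was -2.40 ± 0.19 (adjusted p = 0.000777).

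CHAC1, an enzyme that degrades glutathione, repeated this arrangement. It read 473 and 486.1 in Mut −Gln, 290.3 and 299.8 in Mut +Gln, 512.7 and 521.6 in WT −Gln, and 88.55 and 77.78 in WT +Gln. Again only the WT arrays with glutamine were low. Mut was 3.55-fold above WT with glutamine (1.83 ± 0.12, adjusted p = 1.19e-05), and without it the difference was -0.11 with a 95% interval of -0.38 to 0.17. The interaction was -1.94 ± 0.18 (adjusted p = 0.00161).

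VLDLR, the very low density lipoprotein receptor, had intensities of 51.61 and 43.41 in Mut −Gln, 33.75 and 41.01 in Mut +Gln, 51.19 and 54.9 in WT −Gln, and 8.376 and 10.28 in WT +Gln. Both derivatives overlapped without glutamine. Withdrawal raised the gene 5.71-fold in WT, while the change in Mut was 0.35 and not called (adjusted p = 0.255), which gave an interaction of -2.17 ± 0.30 (adjusted p = 0.0136).

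ASNS, the synthetase that makes asparagine with nitrogen from glutamine, read 295.9 and 294.4 in Mut −Gln, 139.6 and 124.7 in Mut +Gln, 336.3 and 367.6 in WT −Gln, and 68.96 and 75.74 in WT +Gln. The 4 groups did not overlap. Mut stood 1.83-fold above WT with glutamine (adjusted p = 0.000788). The difference without it was -0.25 (95% interval -0.49 to -0.02), not called at an adjusted p of 0.169. The interaction was -1.12 ± 0.15 (adjusted p = 0.0112).

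Serine synthesis and mitochondrial folate enzymes followed. Of 15 tested serine, glycine and folate one-carbon genes 5 had a called negative interaction (0.568% of all genes) and 0 a positive one (0.255%). All 5 are also members of the amino acid response list. The list median was -0.64 (-0.23 with a pseudocount of 16 added before the log2). PHGDH, the entry enzyme of serine synthesis, had 522.4 and 541.7 in Mut −Gln, 391.2 and 385.4 in Mut +Gln, 565.4 and 594.2 in WT −Gln, and 186.8 and 157.4 in WT +Gln. The WT arrays with glutamine were again the low ones, and the interaction was -1.30 ± 0.13 (adjusted p = 0.00358). PSAT1, the next enzyme of that route, read 2285 and 2334 in Mut −Gln, 2187 and 2352 in Mut +Gln, 2963 and 2819 in WT −Gln, and 1272 and 1370 in WT +Gln. The Mut arrays of both media overlapped, lying between the WT arrays without and with glutamine, and Mut was called higher with glutamine (0.78) and lower without it (-0.32, adjusted p = 0.0396). PSPH, which completes the route, likewise differed by 0.68 with glutamine and -0.45 without (adjusted p = 0.016). Of the folate enzymes, MTHFD2 had an interaction of -0.89 ± 0.12 and SHMT2 of -0.67 ± 0.12.

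Of 22 tested amino acid transporters 2 had a called interaction, both negative (0.568% of all genes), with a median of -0.07 for the list. Both are also members of the amino acid response list. SLC1A4, a carrier of small neutral amino acids, had 669.9 and 645.8 in Mut −Gln, 667.7 and 648.5 in Mut +Gln, 667.5 and 634.6 in WT −Gln, and 312.6 and 325.1 in WT +Gln. The Mut arrays of both media overlapped, and the WT arrays without glutamine lay in the same range. The gene rose 2.04-fold in WT. SLC7A11, the cystine-glutamate exchanger, rose 2.31-fold in Mut and 4.05-fold in WT.

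Members called in the response list whose larger difference was not decided included TRIB3, a feedback inhibitor of ATF4, with an interaction of -0.90 ± 0.15. EIF4EBP1, a translation repressor under mTORC1, read 269.8 and 272.9 in Mut −Gln, 357 and 351.1 in Mut +Gln, 368.4 and 409 in WT −Gln, and 271.5 and 267.2 in WT +Gln. Mut and WT stood in opposite order in the media. The gene fell in Mut (-0.38, adjusted p = 0.02) and rose in WT (0.53, adjusted p = 0.00487). EIF4EBP1 and PCK2 were the 2 of the 14 called apart without glutamine and not with it. For PCK2, mitochondrial phosphoenolpyruvate carboxykinase, intensities were 63.93 and 76.5 in Mut −Gln, 38.62 and 44.3 in Mut +Gln, 135.2 and 132.4 in WT −Gln, and 37.97 and 32.53 in WT +Gln. The WT arrays without glutamine were far above all others. With glutamine the derivatives differed by 0.24 (adjusted p = 0.472), and without it Mut was 1.91-fold lower (-0.94, adjusted p = 0.00447).

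ATF4 mRNA itself had an interaction of -0.06 (adjusted p = 0.893), with rises of 0.94 in Mut and 0.99 in WT. SESN2, another brake on mTORC1, had an interaction of -0.78 and was not called (adjusted p = 0.0651). These members were chosen after their values were seen. NIBAN1, a stress-induced protein, rose 12.8-fold in Mut and 29-fold in WT, and its interaction of -1.18 ± 0.32 was not called (adjusted p = 0.115), but was with a pseudocount of 16 (adjusted p = 0.00756). TXNIP, which limits glucose uptake, had an interaction of -1.39 ± 0.35 (adjusted p = 0.0977) and was called with the pseudocount (-1.29, adjusted p = 0.00527), while that of its relative ARRDC4 was called at -1.01 ± 0.17 (adjusted p = 0.034). GLUL, glutamine synthetase, was dim at 8.794 to 12.01 on all arrays and had an interaction of 0.20 (adjusted p = 0.812). CXCL8, a neutrophil chemokine, was dim too, at 2.936 to 6.021, with an interaction of 0.59 (adjusted p = 0.318).

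With 1 DLD1 array left out, 4 to 7 members of the response list were called, fewest without WT −Gln replicate 2. DDIT4, CHAC1, PHGDH and PSAT1 were called in each of the 8 such fits, PSPH in 7, VLDLR and ASNS in 3 and MTHFD2 in 2, whereas SLC1A4, SLC7A11, TRIB3, EIF4EBP1, PCK2 and SHMT2 were called in 0.

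The promoters of ASNS and CHAC1 are shown because both genes carry the baseline difference and hold letters linked to the response. The letters TGATGNAA, found in amino acid response elements, were searched on both strands of RefSeq promoter windows (GRCh38.p14, 250 bases before to 50 after the start). Of 27305 windows 3.67% held a match, and of the 11735 tested genes with a window 1.93%. In the response list 6 of 36 genes with a window held one (16.7%), and among its members with a called interaction 2 of 10 did, ASNS and CHAC1. The windows of those genes are given with the match in capitals, ASNS from chr7:97872449-97872496 (minus strand) and CHAC1 from chr15:40953242-40953289 (plus strand), where the match is on the opposite strand.
ASNS: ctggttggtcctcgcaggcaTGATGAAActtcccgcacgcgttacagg
CHAC1: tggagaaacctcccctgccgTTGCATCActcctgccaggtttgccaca
The match begins 68 bases before the start in ASNS and 209 bases before it in CHAC1. A match describes the letters only.

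**Figure D2:**
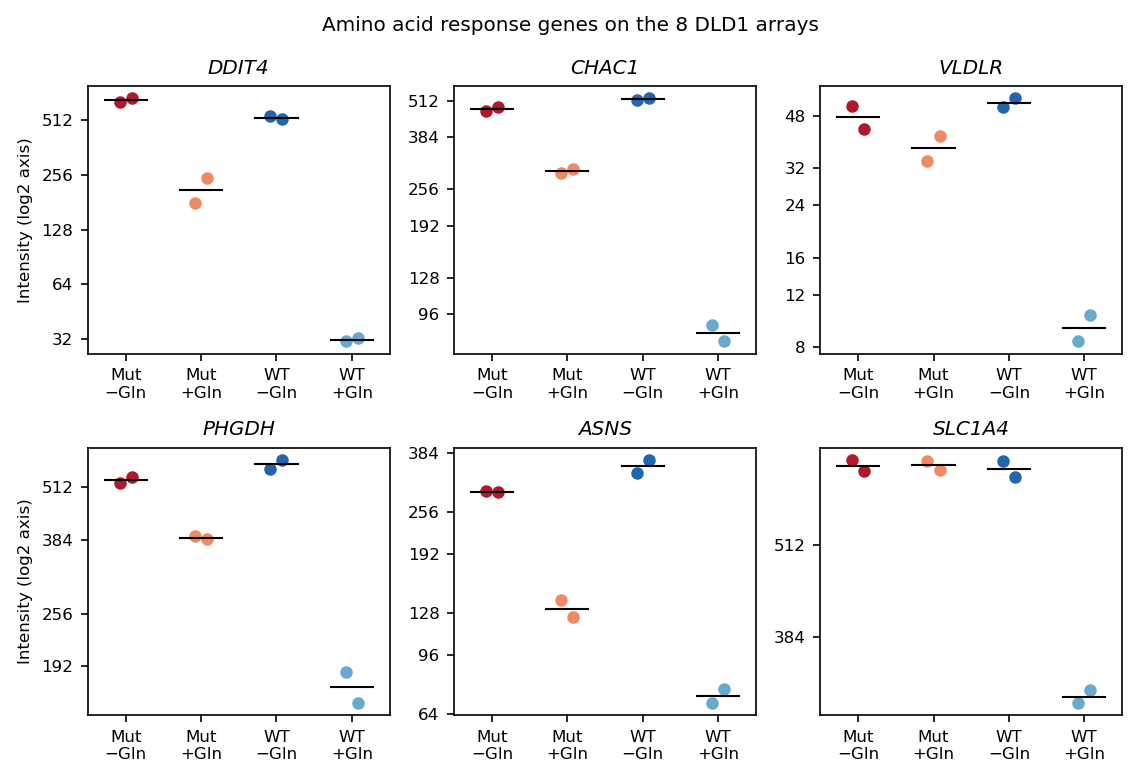
Intensity on a log2 axis of 6 amino acid response genes on the 8 DLD1 arrays, in the order Mut without and with glutamine, then WT without and with glutamine; points are arrays and lines the group means of log2 values (n = 2). In every panel the WT arrays with glutamine are lowest, and SLC1A4 lies between 634.6 and 669.9 in the other groups.

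The called interactions of DNA replication genes were all negative. All 33 listed genes were tested, and 8 had a called negative interaction (0.568% of all genes) and 0 a positive one (0.255%). The median was -0.49, and 32 of 33 estimates were below 0, against 8185 of 15676 over all tested genes. With glutamine 2 of the 33 were called higher in Mut (2.6% of all genes) and 0 lower (3.2%), with a median Mut minus WT difference of 0.11. Without it 18 were called lower in Mut (5.91%) and 0 higher (4.36%), with a median of -0.36. On withdrawal 31 of the 33 fell in Mut (16.8% of all genes fell) and 24 in WT (13%), with medians of -0.85 and -0.38. Of the 8 with a called interaction all fell in Mut, 7 fell in WT, and 1, PRIM1, rose in WT. For 6 of these 8 the derivatives lay within 1.5-fold of each other in full medium. By class, 3 of the 8 had their larger difference without glutamine, 0 with it, and 5 were not decided; 7 were called apart without glutamine only, and PRIM1 with glutamine only.

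MCM3, a subunit of the replicative helicase, had 289 and 290.6 in Mut −Gln, 765.7 and 669.7 in Mut +Gln, 520.5 and 500.5 in WT −Gln, and 695 and 653.5 in WT +Gln. With glutamine the derivatives overlapped, and without it both Mut arrays were below both WT arrays. The difference was 0.09 with glutamine (95% interval -0.12 to 0.29) and -0.82 without it (adjusted p = 0.000474). The interaction was -0.90 ± 0.13 (adjusted p = 0.0177).

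GINS4, a subunit of a complex that activates that helicase, had 48.88 and 57.08 in Mut −Gln, 168.8 and 172.2 in Mut +Gln, 96.85 and 86.72 in WT −Gln, and 130.1 and 144.3 in WT +Gln. It fell by 1.69 in Mut and by 0.58 in WT on the log2 scale, an interaction of -1.11 ± 0.18 (adjusted p = 0.0304). The groups did not overlap.

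CDC6, which loads the helicase at origins, read 187.6 and 197.1 in Mut −Gln, 419.5 and 411.2 in Mut +Gln, 354.2 and 383.3 in WT −Gln, and 469.4 and 492.6 in WT +Gln. The Mut arrays without glutamine were the lowest and overlapped with no other group. Its interaction was -0.73 ± 0.12 (adjusted p = 0.0306). RFC4, part of the clamp loader, fell 2.15-fold in Mut and 1.24-fold in WT, with an interaction of -0.80 ± 0.14 (adjusted p = 0.034). The other called members were MCM6, MCM7, GINS2 and PRIM1, from -0.61 to -0.97.

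Of 23 tested mitosis genes 2 had a called negative interaction (0.568% of all genes), with a median of -0.28 for the list. In full medium 0 were called between the derivatives (5.81% of all genes), and without glutamine 10 were called lower in Mut (5.91%). UBE2C, the ubiquitin-conjugating enzyme of the anaphase-promoting complex, had 53.02 and 48.88 in Mut −Gln, 98.13 and 98.73 in Mut +Gln, 87.99 and 86.25 in WT −Gln, and 79.69 and 82.78 in WT +Gln. Only the Mut arrays without glutamine were low. It fell 1.93-fold in Mut, whereas the WT change was 0.10 and not called (adjusted p = 0.44), an interaction of -1.05 ± 0.12 (adjusted p = 0.00585). PLK1, a kinase of mitotic entry, fell 2.13-fold in Mut and 1.28-fold in WT (interaction -0.73 ± 0.12). MYBL2, a transcription factor of cycling cells that is in neither list and was chosen after its values were seen, fell 3.93-fold in Mut and 2.08-fold in WT, with an interaction of -0.92 ± 0.12 (adjusted p = 0.0112). In bulk samples, fewer cycling cells and less RNA of these genes per cell cannot be told apart.

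The replication calls lie near the threshold. With 1 DLD1 array left out, 2 of the 33 were called without Mut +Gln replicate 2 and 0 without any of the other arrays, and with arrays shifted to the same median 3 were called. UBE2C was called in all 8 leave-one-out fits. The median of the replication list was -0.50 with quantile normalization and -0.42 with the median shift.

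The letters TTTNGCGC, part of the E2F recognition sequence, were chosen for the search after the results were seen. They occurred on either strand in 1.83% of all promoter windows and in 2.62% of those of tested genes. In the replication list 13 of 28 genes with a window held a match (46.4%), and among members with a called interaction 4 of 7 (57.1%), MCM3, MCM6, MCM7 and CDC6. Of all genes with a called negative interaction 7 of 64 had one (10.9%), and of those with a positive one 0 of 32. The windows are shown with the match on the gene's strand in capitals, from chr6:52284719-52284766, chr2:135876506-135876553 and chr7:100101379-100101426, all on the minus strand.
MCM3: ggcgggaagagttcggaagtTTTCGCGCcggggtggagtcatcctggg
MCM6: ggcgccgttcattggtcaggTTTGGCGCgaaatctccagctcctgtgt
MCM7: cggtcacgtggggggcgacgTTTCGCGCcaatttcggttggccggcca
In MCM6 a match on the opposite strand overlaps the one shown, and the promoter holds a second such pair further from the start.

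**Figure D3:**
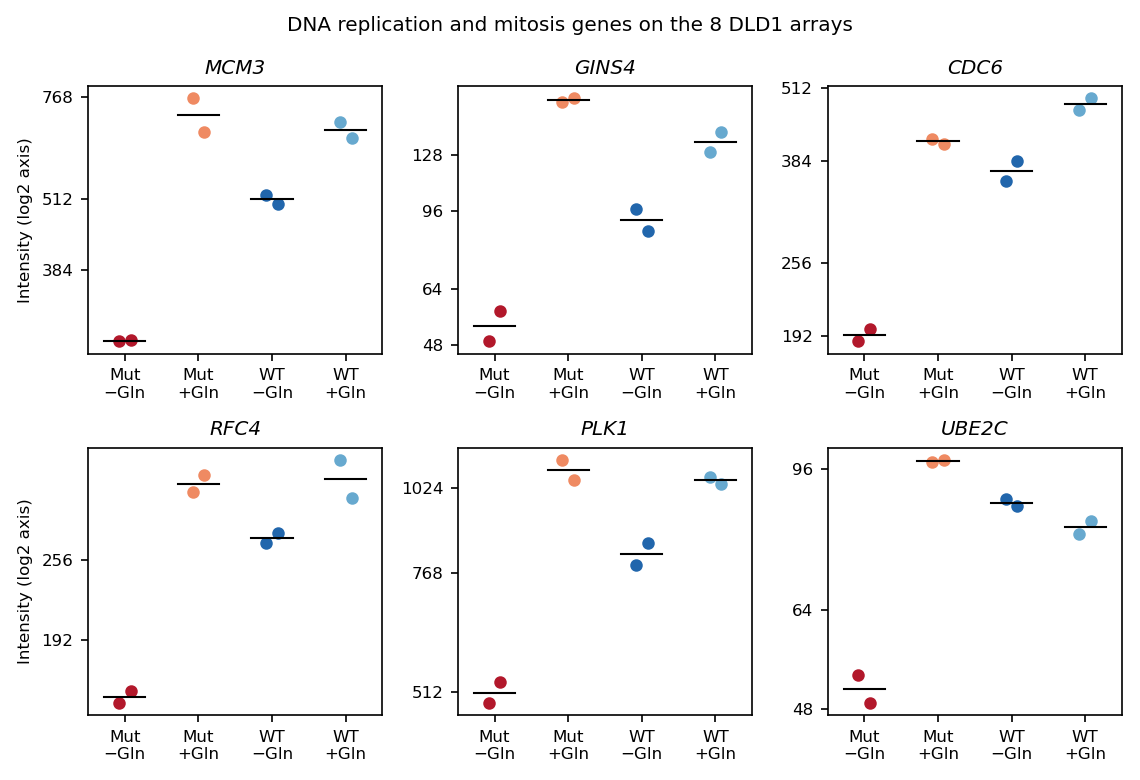
Intensity on a log2 axis of 4 DNA replication genes and the mitosis genes PLK1 and UBE2C on the 8 DLD1 arrays, with the groups, points and lines arranged as in the plot of amino acid response genes. In every panel the Mut arrays without glutamine are lowest.

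Outside the lists, 101 of the 129 genes remained, among them the largest positive interaction, whereas the largest negative one was that of DDIT4. TMPRSS11F, a membrane serine protease, had 19.17 and 19.37 in Mut −Gln, 2.288 and 2.51 in Mut +Gln, 2.924 and 3.76 in WT −Gln, and 3.181 and 3.943 in WT +Gln. Only the Mut arrays without glutamine were high, the other 6 lying near the array medians, an 8.04-fold rise in Mut with an interaction of 3.10 ± 0.19 (adjusted p = 0.00016). The low values are no measured zero, as no detection calls were used, so the fold is one of deposited intensities, and the interaction was 0.96 with a pseudocount of 16 (adjusted p = 0.000148). The call held with each DLD1 array left out.

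CYP1A1, a cytochrome P450 induced through the aryl hydrocarbon receptor, had 72.64 and 73.25 in Mut −Gln, 15.87 and 9.716 in Mut +Gln, 22.06 and 25.17 in WT −Gln, and 13.47 and 14.14 in WT +Gln. The Mut and WT arrays with glutamine overlapped. Withdrawal raised it 5.87-fold in Mut and 1.71-fold in WT (interaction 1.78 ± 0.28, adjusted p = 0.0275). The gene of the receptor, AHR, chosen after its values were seen, had its larger difference in full medium. AHR read 1495 and 1489 in Mut −Gln, 940.1 and 936.5 in Mut +Gln, 1439 and 1480 in WT −Gln, and 1388 and 1400 in WT +Gln, an interaction of 0.60 ± 0.10 (adjusted p = 0.034). Only the Mut arrays with glutamine were low.

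EZH1, a Polycomb histone methyltransferase, had 179.2 and 190.6 in Mut −Gln, 62.41 and 50.6 in Mut +Gln, 93.16 and 81.6 in WT −Gln, and 65.28 and 60.22 in WT +Gln. Mut and WT overlapped with glutamine, and without it Mut was 2.12-fold higher (adjusted p = 0.00244). ZNF431, a zinc finger gene, rose 2.68-fold in Mut, and the WT change of 0.21 was not called. SOX4, a transcription factor on the list of Wnt targets and intestinal stem cell genes, was the called member of that list. It fell 1.88-fold in WT, with a Mut change of -0.06, and Mut exceeded WT 2.43-fold without glutamine and 1.35-fold with it.

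EHD2, an ATPase of caveolae, was lower in Mut in both media and more so without glutamine. It read 2.535 and 2.329 in Mut −Gln, 6.928 and 4.339 in Mut +Gln, 26.91 and 27.78 in WT −Gln, and 12.82 and 14.18 in WT +Gln. No groups overlapped, and the Mut minus WT difference was -3.49 without glutamine and -1.30 with it (interaction -2.19 ± 0.25, adjusted p = 0.00585).

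TFPI, an inhibitor of the tissue factor pathway of coagulation, fell 1.45-fold in Mut and rose 2.00-fold in WT. Its intensities were 5.47 and 5.173 in Mut −Gln, 7.032 and 8.418 in Mut +Gln, 27.96 and 24.88 in WT −Gln, and 14.65 and 11.87 in WT +Gln. The WT arrays without glutamine were the highest, and no groups overlapped. The interaction was -1.53 ± 0.19 (adjusted p = 0.00765). L3MBTL4, a gene with MBT domains, rose 2.89-fold in WT against a Mut change of 0.02, at 2.264 to 2.642 on all Mut arrays, and SEMA4A, a semaphorin, rose 2.64-fold in WT. The Mut arrays of both lay near or below the array medians. FUT3, a fucosyltransferase of Lewis antigens with near-identical relatives, is uncertain, with an interaction of -1.49 ± 0.29 (adjusted p = 0.0477).

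Genes with a positive interaction and the larger difference with glutamine are by that definition lower in Mut in full medium. NRIP1, a corepressor of nuclear receptors, had 19.1 and 22.27 in Mut −Gln, 3.158 and 4.016 in Mut +Gln, 170.4 and 161 in WT −Gln, and 113.6 and 138.1 in WT +Gln. No groups overlapped. Withdrawal raised it 5.79-fold in Mut and 1.32-fold in WT (interaction 2.13 ± 0.19, adjusted p = 0.00161), although on the linear scale WT gained more than Mut. Signs on both scales were the same for 126 of the 129 genes.

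PTGS2, the inducible prostaglandin synthase, read 3.929 and 2.854 in Mut −Gln, 3.024 and 2.669 in Mut +Gln, 4.504 and 4.665 in WT −Gln, and 13.06 and 18.05 in WT +Gln. The WT arrays with glutamine were high, and the other groups did not exceed 4.665. It fell 3.35-fold in WT, an interaction of 1.98 ± 0.26 (adjusted p = 0.011).

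IQGAP2, a scaffold protein, had 4.399 and 4.912 in Mut −Gln, 4.913 and 4.416 in Mut +Gln, 20.21 and 18.05 in WT −Gln, and 60.02 and 55.9 in WT +Gln. The Mut arrays of both media overlapped, and WT fell 3.03-fold on withdrawal (interaction 1.60 ± 0.19, adjusted p = 0.00765). KCNJ8, a potassium channel subunit, and CHSY3, a chondroitin synthase, fell 6.41-fold and 3.99-fold in WT, where they reached the Mut level, near the array medians, without glutamine. UCA1, a long noncoding RNA, fell 2.48-fold in WT. CPA4, a carboxypeptidase, rose 3.02-fold in Mut, towards WT. As most of these Mut values, and those of KCNJ8 and CHSY3 in WT without glutamine, lie near the array medians, a fall to or below that level is not well measured.

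ANGPT1, a ligand of the receptor TEK, was higher in Mut in both media. It had 7.868 and 13.72 in Mut −Gln, 29.73 and 34.52 in Mut +Gln, 2.389 and 2.639 in WT −Gln, and 2.442 and 2.032 in WT +Gln. It fell 3.08-fold in Mut, with WT below the array medians in both media (interaction -1.80 ± 0.29, adjusted p = 0.0304).

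Among the genes with opposite differences in the 2 media, POLE4, an accessory subunit of DNA polymerase epsilon, fell by 0.69 in Mut and rose by 0.59 in WT on the log2 scale. It read 13.62 and 14.27 in Mut −Gln, 22.55 and 22.54 in Mut +Gln, 26.08 and 24.18 in WT −Gln, and 16.82 and 16.63 in WT +Gln. Mut was thus higher than WT with glutamine (0.43) and lower without it (-0.85), with an interaction of -1.28 ± 0.15 (adjusted p = 0.00585). RHEBL1 was called apart without glutamine only. This GTPase gene, related to that of the mTORC1 activator RHEB, rose 3.97-fold in WT, with a Mut change of 0.31 that was not called (adjusted p = 0.233).

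Several called genes stood far apart between the derivatives in both media, and 4 of them, chosen after their values were seen, are named here. UGT8, which makes galactosylceramide, read 3.912 and 4.219 in Mut −Gln, 6.403 and 5.036 in Mut +Gln, 144.1 and 135.3 in WT −Gln, and 384.4 and 459.6 in WT +Gln. Every WT array was far above every Mut array, and the gene fell in both derivatives, by 0.48 in Mut and by 1.59 in WT on the log2 scale. RPS6KA6, a ribosomal S6 kinase, fell by 0.42 in Mut and rose by 0.78 in WT, with Mut minus WT differences of -5.64 without glutamine and -4.44 with it. Its group means of log2 intensity were 1.43 in Mut −Gln, 1.85 in Mut +Gln, 7.07 in WT −Gln and 6.29 in WT +Gln. The Mut levels of UGT8 and RPS6KA6 lay near or below the array medians, so their falls in Mut are not well measured.

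PRSS8, the epithelial serine protease prostasin, had 56.76 and 67.68 in Mut −Gln, 85.48 and 98.49 in Mut +Gln, 712.2 and 645 in WT −Gln, and 394.8 and 427.8 in WT +Gln. It was lower in Mut in both media and moved in opposite directions on withdrawal, by -0.57 in Mut and 0.72 in WT (interaction -1.29 ± 0.18, adjusted p = 0.0136). SCIN, an actin-severing protein, was higher in Mut in both media. Its intensities were 121.6 and 133.4 in Mut −Gln, 188 and 198.2 in Mut +Gln, 14.89 and 15.18 in WT −Gln, and 48.85 and 44.15 in WT +Gln. It fell in both derivatives, more in WT on the log2 scale (interaction 1.03 ± 0.20, adjusted p = 0.045), whereas on the linear scale Mut lost more.

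Of the remaining large interactions, LINC02709, a long noncoding RNA, rose in Mut by 2.51 and in WT by 1.12 on the log2 scale. HCFC2, a relative of the transcriptional coregulator HCFC1, rose by 1.92 in Mut and 0.89 in WT. AKAP5, an anchoring protein for protein kinase A, had an interaction of 1.78 ± 0.34 and KRT23, a keratin, one of 1.19 ± 0.21. SIDT1 had -1.71 ± 0.30, and RN5S161, a 5S ribosomal RNA copy whose near-identical relatives make it uncertain, -1.71 ± 0.28. AKAP5, KRT23, SIDT1 and RN5S161 were all dim, with values near the array medians. Their group means of log2 intensity ran from 1.57 to 2.67, 1.91 to 3.05, 1.77 to 3.01 and 1.51 to 2.75. The antisense and divergent transcripts HEXA-AS1 (1.83), STX17-DT (1.74) and TPRG1-AS1 (-1.32) are named from probe sets of their own, and overlap with their neighbour genes was not tested.

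Interactions of dim genes moved with a constant added before the log2. With a pseudocount of 16 the interaction of 26 of the 53 named genes was smaller by over 1.5 times, 24 of them called as reported and 23 still called. For VLDLR it was -1.20, for NRIP1 0.54, for EHD2 -0.78, for PTGS2 0.65, for KCNJ8 0.86, for TFPI -0.69 and for POLE4 -0.69, all still called. Larger shrinkage was seen for AKAP5 (0.37), SIDT1 (-0.40), RN5S161 (-0.37), HEXA-AS1 (0.50) and TPRG1-AS1 (-0.31), which were also still called. KRT23 was not called then (0.31, adjusted p = 0.383).

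With each DLD1 array left out in turn, NRIP1, EHD2, TFPI, L3MBTL4, CPA4 and POLE4 were called in all 8 fits, as was TMPRSS11F, while IQGAP2 was called in 7 and PTGS2 in 6. SEMA4A was called in 3, and CYP1A1, KCNJ8, RHEBL1 and ANGPT1 in 2. AHR, EZH1, ZNF431, SOX4, FUT3, CHSY3 and UCA1 were called in 0.

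**Figure D4:**
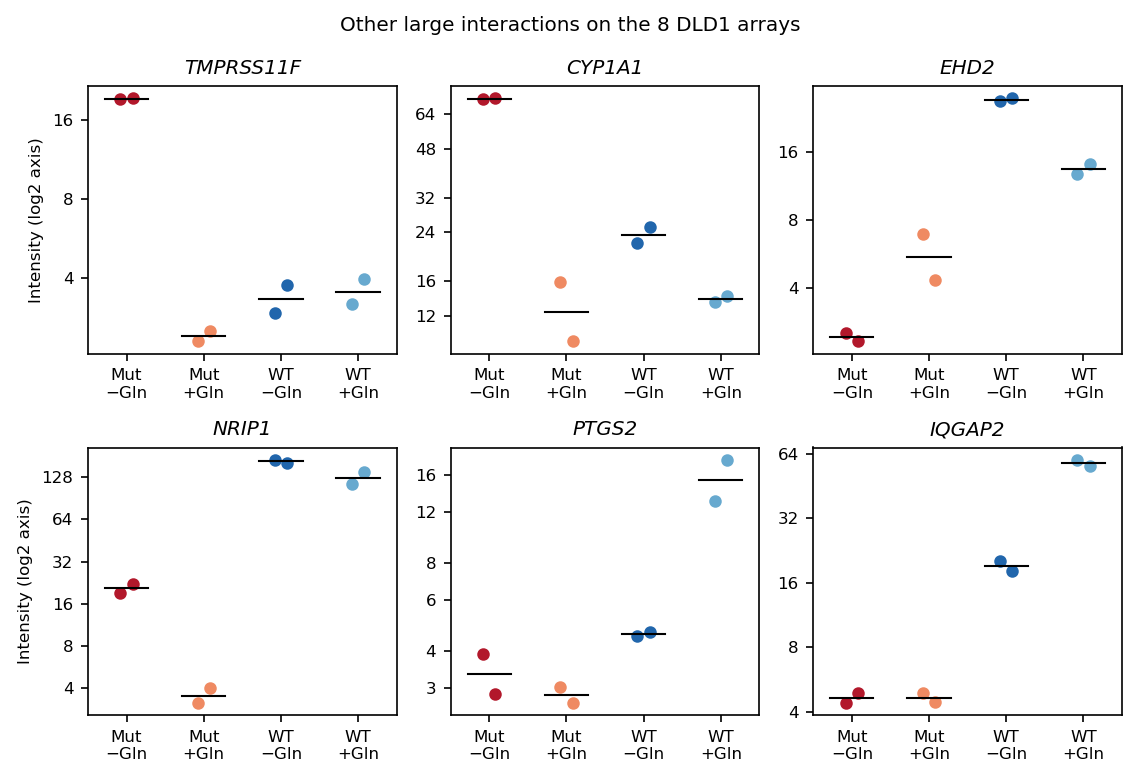
Intensity on a log2 axis of 6 genes with large interactions on the 8 DLD1 arrays, with the groups, points and lines arranged as in the plot of amino acid response genes. TMPRSS11F and CYP1A1 are highest in Mut without glutamine, and the remaining genes are highest in WT.

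Over all tested genes 0.823% had a called interaction, so 0 calls in a short list do not set it apart. Of 25 pathway lists 13 had 0 called members. These included FOXO targets and growth factor receptors (25 tested, median interaction -0.04), lysosome and autophagy (25, median 0.10), ribosome biogenesis (22, median 0.12), nucleotide synthesis (22, median -0.17), p53 targets (21, median -0.05), glycolysis (21, median -0.02) and cholesterol synthesis (19, median 0.16). Nucleotide synthesis genes fell in both derivatives, 15 of 22 in Mut (16.8% of all genes fell) and 13 of 22 in WT (13%). Interferon-stimulated genes (28 tested) had a median interaction of -0.29 (-0.16 with the pseudocount). Of these, 10 members were called lower in Mut without glutamine (5.91% of all genes) and 3 with it (3.2%). Among them IFI6, named after its values were seen, had Mut minus WT differences of -1.43 without glutamine and -0.71 with it, and its interaction of -0.73 ± 0.15 was not called (adjusted p = 0.0578). A single member each was called, negative (0.568% of all genes), in 3 further lists. These were cytosolic aminoacyl-tRNA synthetases (19 tested, GARS1, interaction -0.57), ERK pathway output (24, IER3, -0.67) and mTORC1 inhibitors (16, DDIT4).

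The same interaction was next set against that of HCT116, which shares no array with DLD1. For the amino acid response the median interaction was -0.62 in DLD1 and -0.48 in HCT116, where 16 members were called negative and 1 positive (9.49% of all genes called, 4.75% in each direction). The difference between the lines was called for 1 of 44 members, VLDLR (2.13% of all genes were called, 1.52% in that direction). CHAC1 had interactions of -1.94 in DLD1 and -2.21 in HCT116, a difference of 0.27 with a 95% interval of -0.28 to 0.82. For PHGDH the difference was 0.32 (-0.09 to 0.73), and for ASNS 0.08 (-0.38 to 0.55). For DDIT4 it was -0.66 (-1.25 to -0.07), not called at an adjusted p of 0.249. VLDLR had interactions of -2.17 in DLD1 and 0.30 in HCT116 (difference -2.46 ± 0.42, adjusted p = 0.0185).

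The medians of the cell cycle lists had opposite signs in the lines. The replication list had a median interaction of -0.49 in DLD1 and 0.34 in HCT116. In HCT116, 6 members were called positive and 3 negative (4.75% of all genes in each direction). The difference was called negative for 7 of 33 members (1.52% of all genes) and positive for 1 (0.612%), CCNE1, which was chosen after its values were seen. The interaction of CCNE1 was below 0 in both lines, -0.37 in DLD1 and -1.31 in HCT116. Of the 8 members with a called interaction in DLD1, GINS4 and RFC4 differed between the lines, and GINS2 was called negative in HCT116 too (-0.64). The mitosis list had medians of -0.28 and 0.82, with 17 of 23 members called positive in HCT116 (4.75% of all genes). The difference between the lines was called negative for 16 (1.52%). UBE2C had interactions of -1.05 in DLD1 and 0.82 in HCT116 (difference -1.88 ± 0.17, adjusted p = 0.00143). CKAP2L, a spindle protein, had -0.67 and 1.11 (difference -1.77 ± 0.18, adjusted p = 0.00299), and GINS4 -1.11 and 0.47 (difference -1.58 ± 0.26, adjusted p = 0.0148).

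Of the other genes, TMPRSS11F had an interaction of 3.10 in DLD1 and 0.04 in HCT116 (difference 3.07 ± 0.27, adjusted p = 0.00143). TFPI had -1.53 and 1.53 (difference -3.06 ± 0.26, adjusted p = 0.00143). For CYP1A1 the difference of 1.24 (95% interval 0.37 to 2.11) was not called (adjusted p = 0.143). In all, 37 of the 129 genes also differed between the lines, a count that shares the DLD1 arrays with the interaction itself. Of the 89 negative interactions, 31 were called negative in HCT116 too (of 744 there) and 6 positive, and of the 40 positive ones 8 were called positive (of 744) and 2 negative. Both tests use the same spread per gene.

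**Figure D5:**
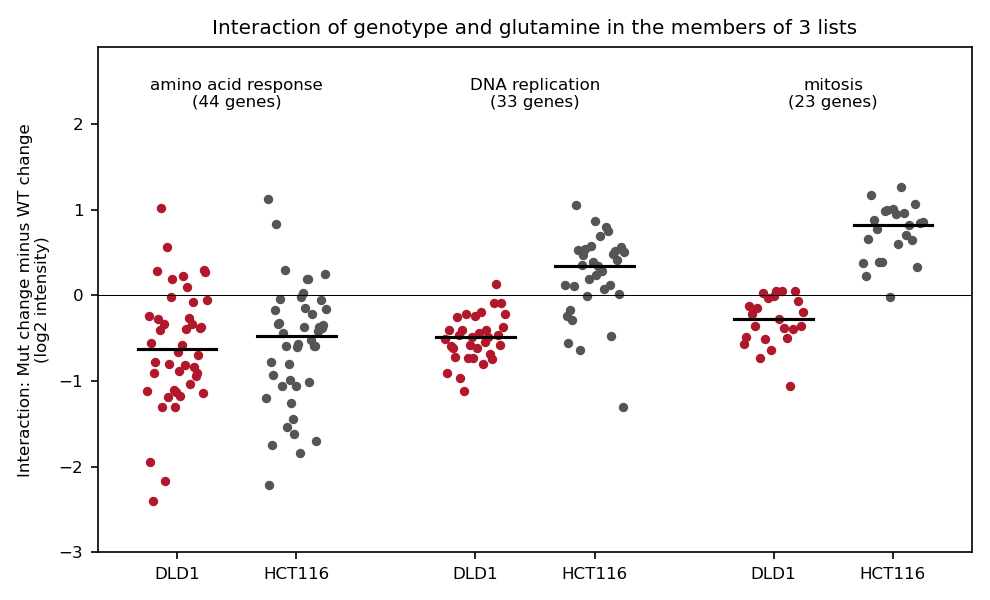
Interaction (Mut change minus WT change, log2 intensity) of every tested member of the amino acid response, DNA replication and mitosis lists in DLD1 and HCT116; points are genes and bars list medians. DLD1 stands left of HCT116; list medians are -0.62 and -0.48 (amino acid response), -0.49 and 0.34 (replication), and -0.28 and 0.82 (mitosis).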

How the data were processed

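Total RNA was labelled by the Affymetrix whole-transcript protocol, per the labels' protocols. The deposited table holds 1 linear intensity per probe set and array, for 53617 probe sets and 16 arrays; how the authors normalized it is not given in the sources used here, and no detection calls were used. The log2 was taken with no pseudocount and no further normalization. Probe sets with exactly 1 symbol were used (23871), for each gene the one with the highest mean, which gave 22395 genes, of which the upper 70% by mean log2 intensity were tested (15676, lowest mean 1.65).

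A single limma fit (version 3.58.1, R 4.3.3) was made of 8 group means over 16 arrays (8 residual and 2.49 prior degrees of freedom), on a script tested on simulated data. Called means an adjusted p (Benjamini-Hochberg, all tested genes together) under 0.05. Errors are limma's SE, intervals are 95% (2.21 SE, not adjusted), and folds are 2 to the absolute log2 difference. Array number, 2 a group, limits the precision. The difference was called larger without glutamine where the mean of both Mut minus WT differences was called with the sign of the interaction, larger with it for the opposite sign, and not decided otherwise.

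The members, the 29 gene lists, the tests and the naming rule were chosen with earlier results of these data known. Named are DDIT4, ASNS, CHAC1, PHGDH, NIBAN1, TXNIP, GLUL and CXCL8, the 12 largest called interactions in each direction that kept their sign with each array left out, the 5 largest per class and direction, up to 4 called members per list and 1 in the other direction, and the 5 largest differences from HCT116 in each direction among genes called for both; other names were chosen after their values were seen. Genes with near-identical copies are uncertain. Promoter windows are RefSeq's, matched by symbol. Alternatives were other filters, scalings and models, a replicate block, DLD1 alone and leaving out each array.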

Additional observations from a re-analysis of the deposited data

Results flagged for a closer look

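The interaction differed between DLD1 and HCT116, by a test of the difference itself, for 334 genes (2.13%), among them 37 of the 129 with a called interaction in DLD1. Differences are DLD1 minus HCT116 on the log2 scale. The largest positive ones among those 37 were TMPRSS11F (3.07), NRIP1 (2.37), STX17-DT (2.33), HEXA-AS1 (2.24) and KRT23 (2.09), and the largest negative ones were TFPI (-3.06), VLDLR (-2.46), ANGPT1 (-1.90), UBE2C (-1.88) and CKAP2L (-1.77). Whether the deposited values tell HEXA-AS1 and STX17-DT from their neighbour genes was not tested. Probe sets with no symbol or several, which enter no comparison above, held 2 called interactions among 13229 tested, both positive; 1049 of them had an unadjusted p under 0.05. Single arrays could not be judged as outliers, with 2 in each group.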

How the results depend on the processing

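The sign of the interaction was kept for all 129 called genes under every alternative in which they were tested. For most alternatives this could not be otherwise. The filters, the block, trend and robust and DLD1 alone leave the estimates unchanged, and leaving out an array could not reverse them. The number of called genes was not stable, and the cause was not tested beyond the changes named. Called interactions (positive, negative) numbered 46 (10, 36) with no filter on dim genes, 328 (112, 216) among genes above the median level, 691 (293, 398) with a pseudocount of 16, 602 (227, 375) for eBayes with trend and robust, 63 (22, 41) with a 2-fold minimum, 3 (1, 2) for DLD1 fitted alone with 4 residual degrees of freedom (CHAC1, TMPRSS11F and, uncertain, IGHV4-34), and 22 (6, 16) with a replicate block within each line. In the same order, genes with the larger difference with glutamine were 15, 52, 120, 84, 20, 1 and 9, without it 17, 122, 254, 223, 23, 1 and 9, and not decided 14, 154, 317, 295, 20, 1 and 4. Replication members were 2, 13, 19, 19, 1, 0 and 0, and mitosis members 1, 4, 9, 9, 1, 0 and 1. Amino acid response members were 9 without the filter, 23 with trend and robust, 9 with the 2-fold minimum, 1 for DLD1 alone and 5 with the block, and serine and one-carbon members 3 with the 2-fold minimum, 0 for DLD1 alone and 3 with the block. The difference between the lines was called for 207, 571, 915 and 794 genes in the first 4 of these and for 147 with the block. Mut and WT with glutamine differed for 1438 genes with the pseudocount, 1379 with trend and robust and 599 for DLD1 alone. With the 2-fold minimum the counts were 297 with glutamine, 345 without, 267 for their mean, 1281 for withdrawal in Mut and 899 in WT. The median shift gave 42 negative interactions, 28 not decided, 9 response, 3 replication and 1 mitosis member. Quantile normalization, the filter on the DLD1 arrays and averaging all probe sets of a gene moved no count by over 1.5 times. Replicate numbers did not pair the arrays (r of deviations -0.02 to 0.03).

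Leaving out 1 DLD1 array, where the lone array is assumed to vary like the other groups, gave 15 to 36 interactions, 5 to 9 positive and 10 to 27 negative, with 5 to 14 larger with glutamine, 5 to 12 larger without and 5 to 15 not decided. Members called were 4 to 7 of the response, 2 to 4 of serine and one-carbon, 0 to 2 of replication and 1 to 1 of mitosis genes. The lines differed for 132 to 220 genes. Mut and WT differed for 459 to 804 genes with glutamine, 709 to 1555 without and 1382 to 1624 on the mean, and withdrawal changed 3996 to 5181 in Mut and 2916 to 4055 in WT. Values near the array medians limit what can be seen of a fall.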
